A study of Homo sapiens with 4 samples.

Results

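The genes described here serve protein folding in the endoplasmic reticulum (ER), the unfolded protein response (UPR) and ER-associated degradation (ERAD). They are 37 genes chosen by symbol: UPR sensors and transcription factors, lectin and thiol chaperones, translocon subunits and ERAD factors. Genes named as HSP70 or DNAJ were left out by symbol, not by protein domain. Each symbol matched 1 Ensembl row of the count table, so they make up 37 of its 20263 rows. All 37 passed the filter on low counts. The samples were MDA-MB-231 cells, an established human triple-negative breast cancer line, sequenced as messenger RNA libraries. The compared groups were cells given Rib_CA for 24 h (2 libraries), a compound named in the study's title as derived from the CDK4/6 inhibitor ribociclib, and cells given the solvent DMSO (2 libraries). The dose of Rib_CA is not given in the sources used here. Nothing says whether the libraries of a group came from separate cultures. Each p therefore sets the difference between groups against library-to-library spread alone, some or all of which may be technical. In bulk RNA, fewer cells of a kind and less RNA per cell cannot be told apart.

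The ER folds secreted and membrane proteins, and the UPR adjusts its capacity to the load. IRE1, encoded by ERN1, splices XBP1 mRNA to give an active transcription factor. ATF6 travels to the Golgi, where the proteases encoded by MBTPS1 and MBTPS2 release its active fragment, and PERK, the remaining sensor, raises translation of ATF4. XBP1 and ATF6 induce chaperone and ERAD genes through promoter elements called ERSE, ERSE-II and UPRE. Professional secretory cells depend on this machinery, and in triple-negative breast cancer the branch from IRE1 to XBP1 has been linked to tumour growth.

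Libraries held between 34774542 and 38865103 counts. Levels are given as CPM, counts per 1000000 counts of the library after TMM scaling. Vimentin (VIM), a marker of the line's mesenchymal character, lay between 3587 and 4221 CPM, while the oestrogen receptor gene ESR1 reached at most 0.663 CPM and the E-cadherin gene CDH1 at most 0.0766 CPM, and the fibroblast gene DCN and the T-cell gene CD3E had no counts. Other genes looked up as low or as markers of other cells were detected. ERBB2 lay between 58.0 and 87.1 CPM and EPCAM between 9.50 and 12.2 CPM. The leukocyte gene CD68 lay between 161 and 338 CPM and the fibroblast gene COL1A1 between 4.09 and 8.05 CPM. PGR, PTPRC, COL3A1, PECAM1, VWF and ALB reached at most 1.76 CPM. Transcripts of the mitochondrial genome took 5.78% and 3.13% of the counts in Rib_CA libraries 1 and 2 and 8.68% and 21.7% in DMSO libraries 1 and 2. This share was lower in both Rib_CA libraries. It enters the library sizes: without the mitochondrial genes, 3 of the 37 genes were called higher and 2 lower by edgeR, against 2.8% and 5.48% of all genes tested (8.28% in either direction).

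Promoter sequence shows which of these genes carry the letters that ATF6 and XBP1 are known to read. RefSeq windows (GRCh38.p14) from 250 bases before to 50 bases after a transcription start existed for 34 of the 37 genes. Both strands were searched for ERSE (CCAAT and CCACG with 9 free bases between them), ERSE-II (ATTGG and CCACG with 1 free base between them) and UPRE (TGACGTGG). An ERSE was found for 6 of the 34 genes (ERO1B, PDIA6, CANX, CALR, XBP1 and CRELD2) and an ERSE-II for 3 (HYOU1, HERPUD1 and SDF2L1). Together they were 26.5% of the 34 genes, against 0.161% of all 27305 symbols with a window. A UPRE was found for HYOU1, VCP and SEC62, or 8.82% of the 34 genes, against 0.927% of all symbols, and the one in HYOU1 overlaps the other ERSE-II of that gene, which is not printed. The members were picked as UPR, folding and ERAD genes, which these elements are known to serve, so the higher shares are no independent result. These letters describe the windows and say nothing of binding. The stretches below are the elements of 6 such genes, shown because their levels can then be read against a known UPR element. They run 5′ to 3′ on the gene's strand, with the element in capitals, and in CRELD2, CALR, HYOU1 and SDF2L1 it reads on the opposite strand.
XBP1 (ERSE, chr22:28800583-28800641, minus strand): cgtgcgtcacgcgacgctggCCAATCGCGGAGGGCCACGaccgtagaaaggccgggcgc
CRELD2 (ERSE, chr22:49918534-49918592, plus strand): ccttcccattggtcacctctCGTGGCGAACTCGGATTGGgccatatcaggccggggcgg
CALR (ERSE, chr19:12938364-12938422, plus strand): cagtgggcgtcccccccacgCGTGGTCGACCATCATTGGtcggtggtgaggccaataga
HERPUD1 (ERSE-II, chr16:56932005-56932055, plus strand): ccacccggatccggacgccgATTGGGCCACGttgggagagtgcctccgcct
SDF2L1 (ERSE-II, chr22:21642094-21642144, plus strand): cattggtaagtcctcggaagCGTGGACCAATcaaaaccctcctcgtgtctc
HYOU1 (ERSE-II, chr11:119057254-119057304, minus strand): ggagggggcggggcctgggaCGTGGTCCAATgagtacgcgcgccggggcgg

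Rib_CA was compared with DMSO to ask which of these genes the compound changed. The IRE1 gene ERN1 rose, and the translocon accessory genes SEC62 and SEC63 fell. No other member passed, and the folding enzymes and ERAD factors had both positive and negative values. In edgeR's quasi-likelihood test over 13667 genes, with p adjusted by the Benjamini-Hochberg method and a threshold of 0.05, 3 of 37 members (8.11%) were called, against 7.13% of all genes tested. In separate directions, 1 member was higher (2.70%, against 2.01% of all genes) and 2 were lower (5.41%, against 5.11%). The share of members called was therefore close to that of all genes. Both Rib_CA libraries lay beyond both DMSO libraries for 22 of 37 members (59.5%), against 58.8% of all genes tested. Of these, 13 were higher and 9 lower, against 30.4% and 28.4% of all genes. An unadjusted p under 0.05 was found for 12 members, 7 higher and 5 lower, against 28.4% of all genes, 13.7% higher and 14.7% lower. The median log2 fold change of Rib_CA over DMSO was 0.07 for the members and 0.03 for all genes tested. The interquartile range of the members ran from -0.21 to 0.74, against -0.54 to 0.55 for all genes. DESeq2, another count test, called 9 members, 5 of them higher and 4 lower, against 18.7% of all genes (7.63% higher and 11.1% lower). With limma-voom 1 member was higher and 2 were lower, against 1.64% and 4.81% of all genes (6.45% in either direction). Scaling libraries by total counts alone moved the median of all genes by 0.20 on the log2 scale. ERN1 was then the only member called, against 588 of the 13667 genes tested (260 higher and 328 lower). At that scaling 27 members had a positive value, against 20 with TMM. The median log2 fold change was then 0.27 for the members and 0.23 for all genes tested.

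Per kilobase of the longest transcript, CALR was the most abundant member in both groups (mean 616 CPM per kilobase in Rib_CA and 664 in DMSO) and DERL3 the least abundant (0.213 in Rib_CA and 0.203 in DMSO). The next highest mean was that of P4HB in Rib_CA (279, against 198 in DMSO) and that of CANX in DMSO, where it stood at 292, against 259 in Rib_CA. ERN1, the gene with the largest fold change among the members, stood at 11.3 CPM per kilobase in Rib_CA and 2.32 in DMSO.

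**Figure D1:**
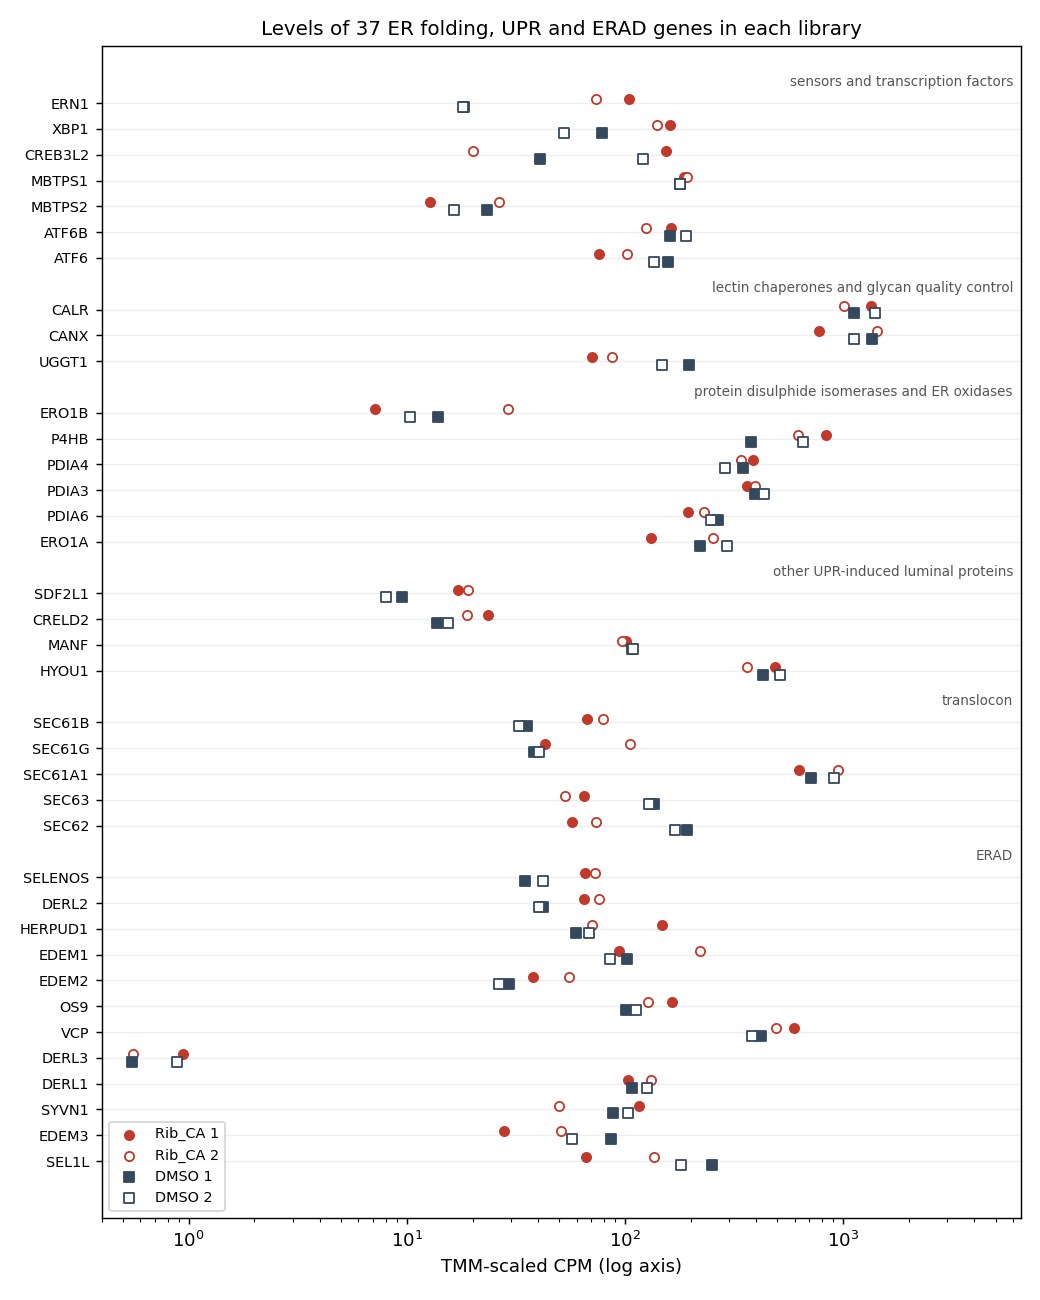
TMM-scaled CPM (log axis) of the 37 genes in each library, grouped by role, with Rib_CA as circles and DMSO as squares (filled, library 1; open, library 2). ERN1 stands apart to the right in both Rib_CA libraries (104 and 73.7 CPM, against 18.3 and 18.2 CPM in DMSO), SEC62 and SEC63 stand apart to the left, and CALR, CANX and SEC61A1 overlap between the groups at high levels.

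Among the sensors, ERN1 (chr17:64039142-64130819, minus strand, GRCh38 in GENCODE release 29) had 104 and 73.7 CPM in Rib_CA libraries and 18.3 and 18.2 CPM in DMSO libraries. The Rib_CA libraries were both high and did not overlap the DMSO libraries, which were nearly equal. The mean was 89.0 ± 21.6 CPM in Rib_CA and 18.2 ± 0.109 CPM in DMSO (SD, n = 2 libraries each), a 4.88-fold increase (log2 fold change 2.29 ± 0.30 SE; edgeR adjusted p = 0.0285). ERN1 passed with each library left out in turn, where its log2 fold change lay between 1.97 and 2.51, and with libraries scaled by total counts alone (2.47). It did not pass once an offset for transcript GC content and length was entered (2.42, edgeR adjusted p = 0.0805), a fit in which no gene passed. With the replicate number entered as a block beside that offset, ERN1 was 1 of 16 genes that passed (2.42, edgeR adjusted p = 0.0460).

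XBP1, the transcription factor gene whose mRNA IRE1 splices, had 161 and 141 CPM in Rib_CA and 78.6 and 52.5 CPM in DMSO. Both Rib_CA libraries were above both DMSO libraries, with means of 151 ± 14.7 CPM in Rib_CA and 65.6 ± 18.5 CPM in DMSO (SD, n = 2 libraries each, here and in the means that follow). The 2.30-fold difference did not pass (log2 fold change 1.20 ± 0.30 SE; edgeR adjusted p = 0.0588). DESeq2 called it (adjusted p = 0.00407). Gene counts do not separate spliced from unspliced XBP1 mRNA, so IRE1 activity was not measured here. ATF6 had 75.8 and 102 CPM in Rib_CA and 157 and 136 CPM in DMSO, lower in both Rib_CA libraries without overlap. Its mean was 89.1 ± 18.8 CPM in Rib_CA and 146 ± 14.6 CPM in DMSO (log2 fold change -0.72 ± 0.27 SE; edgeR adjusted p = 0.148). Its relative ATF6B had 162 and 125 CPM in Rib_CA and 160 and 191 CPM in DMSO, and the groups overlapped. The site-1 protease gene MBTPS1 was almost level, at 189 ± 3.79 CPM in Rib_CA and 179 ± 0.868 CPM in DMSO. The site-2 protease gene MBTPS2 was low and variable, at 12.7 and 26.6 CPM in Rib_CA and 23.3 and 16.4 CPM in DMSO. CREB3L2, a membrane-bound factor that is cleaved like ATF6, varied more between libraries than any other member: it had 155 and 20.1 CPM in Rib_CA and 40.9 and 121 CPM in DMSO. Its log2 fold change was 0.11 ± 0.89 SE, and ran from -2.08 to 1.09 with 1 library left out.

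**Figure D2:**
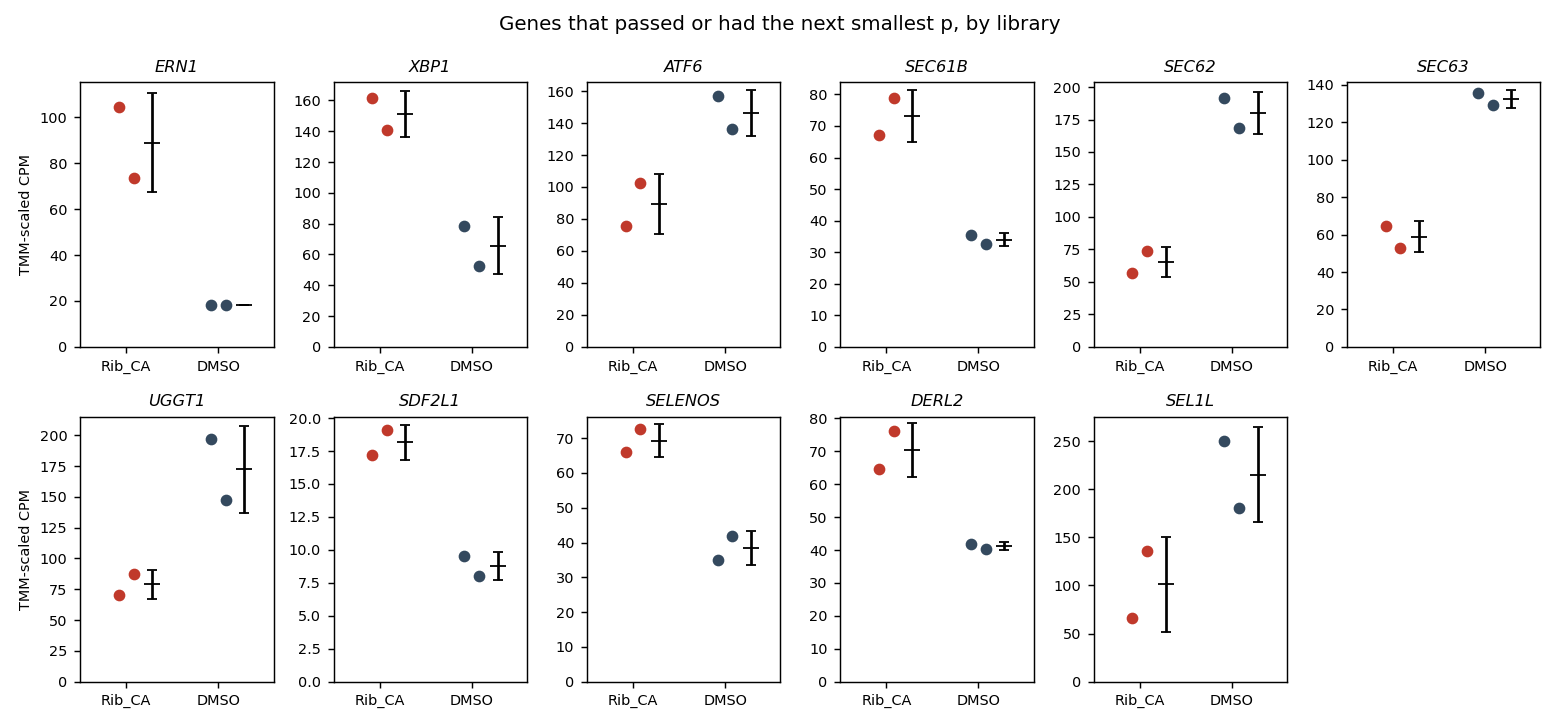
TMM-scaled CPM of the 3 genes that passed and the 8 with the next smallest p, with 1 point per library and the mean ± SD beside the points (n = 2 libraries per group, axes from 0). In each of these panels the Rib_CA and DMSO libraries do not overlap, as for 58.8% of all genes tested. The genes were chosen by their small p, so separate groups were likely from the start. ERN1, SEC62 and SEC63 passed the test and the others did not.

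The translocon moves new proteins into or across the ER membrane. Its channel is made by the SEC61 subunits, and SEC62 and SEC63 assist it, above all for short proteins that are imported after translation; SEC62 also acts as a receptor for autophagy of ER. SEC62 (chr3:169966635-169998373, plus strand) had 57.1 and 73.7 CPM in Rib_CA and 192 and 169 CPM in DMSO. Both Rib_CA libraries were low, and SEC62 averaged 65.4 ± 11.8 CPM in Rib_CA and 180 ± 16.2 CPM in DMSO (SD, n = 2 libraries each). It was 2.76-fold lower in Rib_CA (log2 fold change -1.46 ± 0.27 SE; edgeR adjusted p = 0.0326). SEC63 (chr6:107867756-107958189, minus strand) had 64.6 and 52.9 CPM in Rib_CA and 136 and 129 CPM in DMSO. The groups were again apart, with means of 58.8 ± 8.31 CPM in Rib_CA and 132 ± 4.65 CPM in DMSO (SD, n = 2 libraries each). SEC63 was 2.25-fold lower (log2 fold change -1.17 ± 0.26 SE; edgeR adjusted p = 0.0452).

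None of the 3 channel subunit genes passed in edgeR, against 7.13% of all genes tested. DESeq2 called SEC61B alone of the 3, against 18.7% of all genes. SEC61B had 67.3 and 78.9 CPM in Rib_CA and 35.4 and 32.5 CPM in DMSO, higher in both Rib_CA libraries. Its mean was 73.1 ± 8.25 CPM in Rib_CA and 34.0 ± 2.07 CPM in DMSO (log2 fold change 1.11 ± 0.26 SE; edgeR adjusted p = 0.0548; DESeq2 adjusted p = 0.00334). SEC61G had 42.8 and 105 CPM in Rib_CA and 38.4 and 40.4 CPM in DMSO, so that its difference rested mainly on Rib_CA library 2 (log2 fold change 0.91, and 0.12 without that library). SEC61A1, the pore-forming subunit, overlapped between the groups at 625 and 950 CPM in Rib_CA and 710 and 906 CPM in DMSO. Its log2 fold change was -0.04 and, with total counts alone, 0.19. Per kilobase of the longest transcript, the mean level of SEC61A1 was 217 CPM in Rib_CA and 222 CPM in DMSO. On the same scale SEC61B had 106 CPM in Rib_CA and 49.5 CPM in DMSO, and SEC61G 60.3 CPM in Rib_CA and 32.1 CPM in DMSO. SEC62 (9.96 CPM per kilobase in Rib_CA and 27.4 in DMSO) and SEC63 (9.16 in Rib_CA and 20.6 in DMSO) lay below the channel subunits in both groups. The calls of SEC62 and SEC63 depended on settings: both were lost without DMSO library 1 (adjusted p = 0.159 and 0.266), without DMSO library 2 (0.0846 and 0.216) and with total-count scaling (0.0601 and 0.0807), all in edgeR.

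**Figure D3:**
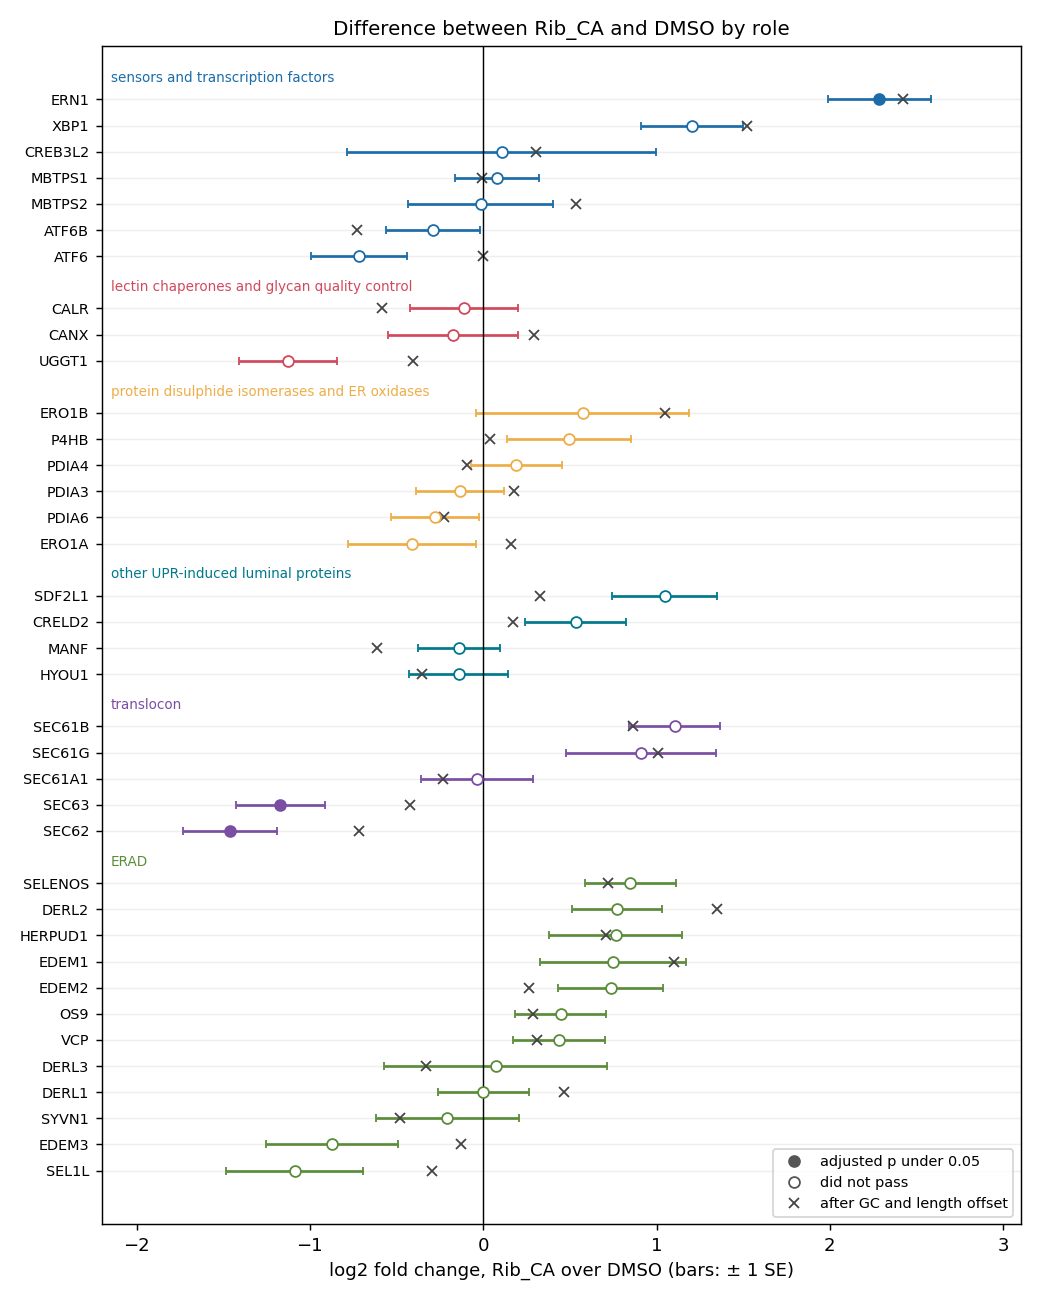
Log2 fold change of Rib_CA over DMSO for each of the 37 genes, ordered by role (points with bars of ± 1 SE; filled, adjusted p under 0.05), with crosses for the fit after an offset for transcript GC content and length. ERN1 stays above 2 in both fits, while SEC62 and SEC63 lie at -1.46 and -1.17 without the offset and at -0.72 and -0.42 with it.

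Lectin chaperones bind sugar-tagged folding intermediates in the ER. CALR and CANX, encoding calreticulin and calnexin, were among the most abundant members, and neither group stood apart. CALR had 1338 and 1006 CPM in Rib_CA and 1123 and 1404 CPM in DMSO, and CANX had 773 and 1433 CPM in Rib_CA and 1362 and 1127 CPM in DMSO. Their log2 fold changes were -0.11 ± 0.31 SE and -0.17 ± 0.37 SE, and 0.09 and 0.04 with total counts alone. UGGT1, which re-tags glycoproteins that are still misfolded, was low in both Rib_CA libraries. It had 70.4 and 87.5 CPM in Rib_CA and 197 and 147 CPM in DMSO, with means of 78.9 ± 12.1 CPM in Rib_CA and 172 ± 35.3 CPM in DMSO. The difference did not pass (log2 fold change -1.13 ± 0.28 SE; edgeR adjusted p = 0.0626). Of these 3 genes, 1 had an unadjusted p under 0.05 in edgeR, DESeq2 called UGGT1 and limma-voom called none, against 28.4%, 18.7% and 6.45% of all genes in those tests.

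Protein disulphide isomerases form and rearrange disulphide bonds, and the ERO1 oxidases supply them with oxidising power. None of the 6 genes passed in edgeR, DESeq2 or limma-voom, which called 7.13%, 18.7% and 6.45% of all genes. None had an unadjusted p under 0.05 in these fits, against 28.4% of all genes in edgeR. P4HB, the classical isomerase, had 831 and 622 CPM in Rib_CA and 377 and 654 CPM in DMSO, and the groups overlapped. PDIA3, which works with calnexin and calreticulin, had 361 and 393 CPM in Rib_CA and 394 and 433 CPM in DMSO, slightly below in both Rib_CA libraries (log2 fold change -0.14 ± 0.25 SE, and 0.07 with total counts alone). PDIA4, also an isomerase, had a log2 fold change of 0.19 ± 0.26 SE and its relative PDIA6 one of -0.28 ± 0.25 SE. The oxidase genes had wider errors. ERO1A had 132 and 253 CPM in Rib_CA and 220 and 292 CPM in DMSO, and ERO1B had 7.12 and 29.04 CPM in Rib_CA and 13.9 and 10.4 CPM in DMSO. Without Rib_CA library 2 the log2 fold change of ERO1B was -0.77 in place of 0.57.

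The other luminal UPR genes include HYOU1, an ER chaperone and nucleotide exchange factor, MANF, a secreted stress-induced factor, CRELD2, a stress-induced ER protein, and SDF2L1, a chaperone cofactor. SDF2L1 had 17.2 and 19.1 CPM in Rib_CA and 9.52 and 8.05 CPM in DMSO, higher in both Rib_CA libraries. The means of 18.2 ± 1.34 CPM in Rib_CA and 8.78 ± 1.04 CPM in DMSO did not differ past the threshold (log2 fold change 1.05 ± 0.30 SE; edgeR adjusted p = 0.0844). CRELD2 had 23.5 and 18.9 CPM in Rib_CA and 13.8 and 15.4 CPM in DMSO (log2 fold change 0.53 ± 0.29 SE). HYOU1 and MANF were nearly level, with log2 fold changes of -0.14 ± 0.29 SE and -0.14 ± 0.24 SE, and 0.05 and 0.06 with total counts alone. None of the 4 passed in edgeR or limma-voom, 1 had an unadjusted p under 0.05 in edgeR, and DESeq2 called SDF2L1, against 28.4% of all genes at an unadjusted p under 0.05 and 18.7% called by DESeq2. The 9 genes whose windows held an ERSE or ERSE-II had a median log2 fold change of 0.53 (range -0.28 to 1.20; 5 positive), and the 25 others with a window had a median of 0.08 (13 positive). With total counts alone the medians were 0.73 and 0.28, with 8 and 16 positive, and with the GC and length offset they were 0.29 and 0.04. None of the 9 passed in edgeR and 3 of the 25 did, against 7.13% of all genes tested. The sequences printed above thus belong both to genes with higher values in each Rib_CA library (XBP1, SDF2L1, CRELD2, HERPUD1) and to genes whose groups overlapped (CALR, HYOU1). Of the genes with an ERSE that are not printed, PDIA6 was lower in both Rib_CA libraries, and the groups of CANX and ERO1B overlapped.

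ERAD withdraws misfolded proteins from the ER for destruction by the proteasome. EDEM proteins trim mannose from their glycans, OS9 recognises the trimmed glycan, SEL1L and the ubiquitin ligase SYVN1 form the core complex with HERPUD1 and the derlins, and the ATPase VCP pulls the substrate out, held at the membrane by SELENOS. None of these 12 genes passed in edgeR, where 4 had an unadjusted p under 0.05, against 28.4% of all genes. DESeq2 called SEL1L lower and SELENOS higher, against 18.7% of all genes called, and limma-voom called none. Fold changes were positive for 9 and negative for 3, with TMM and with total counts alone, where 7094 of the 13667 genes tested were positive with TMM. Both Rib_CA libraries lay above both DMSO libraries for 6 and below them for 2, against 30.4% and 28.4% of all genes.

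SELENOS had 65.9 and 72.6 CPM in Rib_CA and 35.0 and 41.9 CPM in DMSO, with means of 69.3 ± 4.77 CPM in Rib_CA and 38.4 ± 4.89 CPM in DMSO (log2 fold change 0.85 ± 0.26 SE; edgeR adjusted p = 0.0979). DERL2 had 64.7 and 76.1 CPM in Rib_CA and 42.0 and 40.3 CPM in DMSO, with means of 70.4 ± 8.09 CPM in Rib_CA and 41.1 ± 1.16 CPM in DMSO (log2 fold change 0.77 ± 0.26 SE; edgeR adjusted p = 0.114). Both genes were higher in each Rib_CA library. SEL1L was lower, with 66.5 and 136 CPM in Rib_CA and 250 and 181 CPM in DMSO, and means of 101 ± 49.2 CPM in Rib_CA and 215 ± 49.1 CPM in DMSO (log2 fold change -1.09 ± 0.40 SE; edgeR adjusted p = 0.135). Without Rib_CA library 2 its log2 fold change was -1.70 and passed (edgeR adjusted p = 0.0149), and without Rib_CA library 1 it was -0.70 (adjusted p = 0.110). Its partner SYVN1 had 116 and 49.8 CPM in Rib_CA and 87.9 and 103 CPM in DMSO, and the groups overlapped. The 3 EDEM genes differed in sign: log2 fold changes were 0.75 ± 0.42 SE for EDEM1, 0.74 ± 0.30 SE for EDEM2 and -0.87 ± 0.38 SE for EDEM3. EDEM1 had 93.8 and 221 CPM in Rib_CA and 102 and 85.3 CPM in DMSO, so that only Rib_CA library 2 was high; without it the log2 fold change was 0.00. HERPUD1 had 147 and 70.4 CPM in Rib_CA and 59.4 and 68.7 CPM in DMSO, so that Rib_CA library 2 lay just above the DMSO libraries; its log2 fold change was 0.76, and 0.09 without Rib_CA library 1. VCP had 594 and 493 CPM in Rib_CA and 420 and 382 CPM in DMSO, and OS9 164 and 128 CPM in Rib_CA and 101 and 113 CPM in DMSO. DERL1 was level (117 ± 19.96 CPM in Rib_CA and 117 ± 12.8 CPM in DMSO). DERL3, the derlin of professional secretory cells, lay at 0.944 and 0.558 CPM in Rib_CA and 0.548 and 0.881 CPM in DMSO, above the 0.0697 to 0.0911 CPM that 3 counts stand for. It shares 77.0% of its exonic bases with SMARCB1 on the opposite strand, and whether the counting used strand is not given in the sources used here. PDIA6 shares 25.2% with ATP6V1C2 and PDIA3 14.8% with ELL3 (both opposite strand), and MBTPS2 12.2% with YY2 on the same strand.

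The Rib_CA libraries differed from each other more than the DMSO libraries did. Between the 2 libraries of a group, 8 of 37 members differed at least 2-fold in Rib_CA and 1 (CREB3L2) in DMSO. The median ratio of the higher to the lower library was 1.33 in Rib_CA and 1.18 in DMSO for the members, and 1.37 and 1.21 for all genes tested. Of the 8 members, MBTPS2, ERO1B, SEC61G, SEL1L and EDEM1 were higher in Rib_CA library 2, and CREB3L2, HERPUD1 and SYVN1 were higher in Rib_CA library 1. Leaving out Rib_CA library 1 raised the number of members called to 9 higher and 4 lower, against 8.84% and 11.7% of all genes (20.5% in either direction). These were ERN1, XBP1, ERO1B, SDF2L1, SEC61B, SEC61G, EDEM1, EDEM2 and DERL2, called higher, and UGGT1, SEC62, SEC63 and SYVN1, called lower. Leaving out Rib_CA library 2 gave 4 higher and 6 lower, against 8.22% and 11.6% of all genes (19.8% in either direction). These were ERN1, XBP1, SEC61B and HERPUD1, called higher, and ATF6, UGGT1, SEC62, SEC63, SEL1L and EDEM3, called lower. Without DMSO library 1 ERN1 alone passed, against 0.256% of all genes called higher and 0.975% lower (1.23% in either direction). Without DMSO library 2 ERN1 again passed alone, against 0.377% higher and 2.53% lower (2.91% in either direction). With 1 library left in a group, its spread had to be taken from the remaining group.

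Longer transcripts had lower fold changes, among these genes as over the whole table. Across the 37 genes, log2 fold change and log2 transcript length had a Pearson's r of -0.48 and a Spearman's rho of -0.51, against -0.33 and -0.34 across 13651 genes with a length. For GC content the values were 0.31 and 0.21 across the 37 genes, against 0.43 and 0.48 across the 13651 genes. These are descriptions across genes that share 4 libraries, and genes are not independent replicates. The 11 members of at least 5 kilobases had a median log2 fold change of -0.72 and the 26 shorter ones one of 0.32. SEC62 (6.57 kilobases, 36.7% GC) and SEC63 (6.41 kilobases, 39.4% GC) are long and AT-rich, and SEC61B (0.687 kilobases) is the shortest member. ERN1, at 7.88 kilobases, was 1 of 4 among the 11 long members with a positive value. With each library's dependence on transcript GC content and length entered as an offset, ERN1 kept a log2 fold change of 2.42 (edgeR adjusted p = 0.0805), while SEC62 moved to -0.72 (adjusted p = 0.119), SEC63 to -0.42 (adjusted p = 0.402), UGGT1 to -0.40, SEL1L to -0.29 and ATF6 to 0.00. XBP1 moved to 1.52, DERL2 to 1.35 and SDF2L1 to 0.33. ATF6B moved to -0.73, MANF to -0.61 and CALR to -0.58, each a larger negative value than without the offset. No gene of the 13667 passed in that edgeR fit (0.0%), with 3421 at an unadjusted p under 0.05 against 3879 without the offset, and among the members 10 against 12. The part of transcript composition in these differences was not tested beyond this offset.

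**Figure D4:**
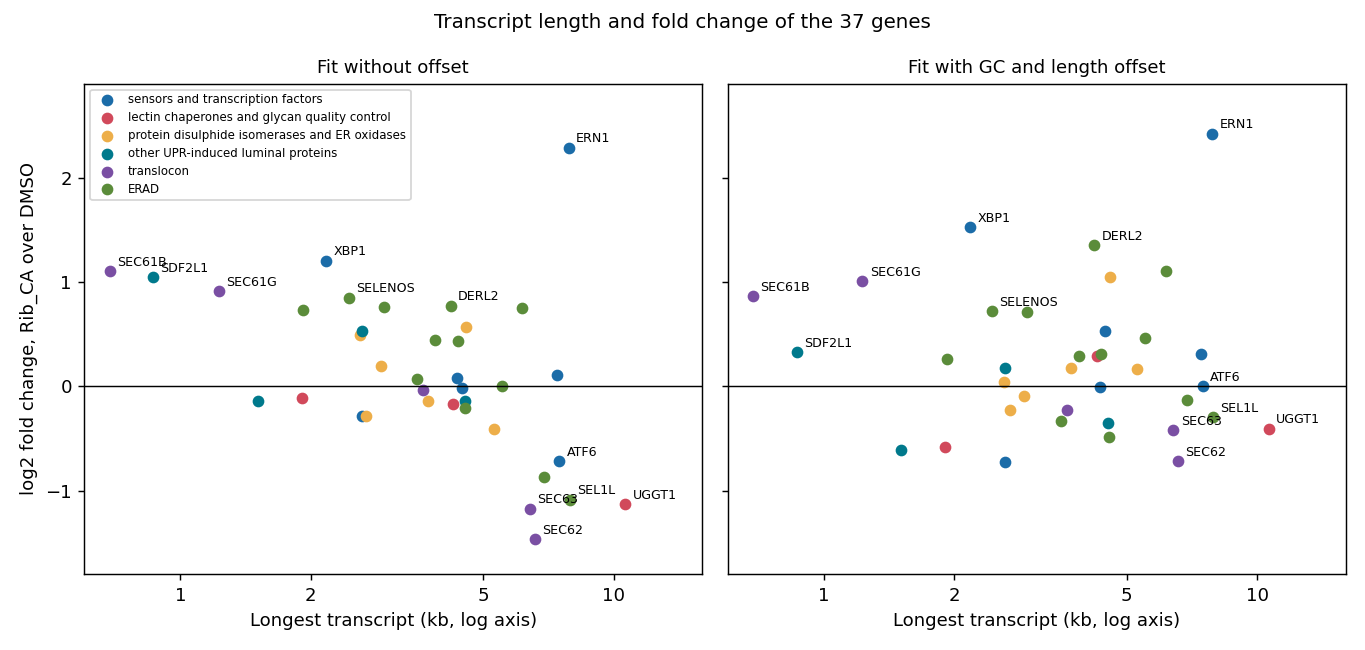
Log2 fold change of Rib_CA over DMSO against the length of the longest transcript (kilobases, log axis) for the 37 genes, without (left) and with (right) the GC and length offset. On the left the long genes SEC62, SEC63, UGGT1 and SEL1L lie lowest and ERN1 highest. On the right ERN1 stays near 2.42 and SEC62, SEC63, UGGT1 and SEL1L lie closer to 0. Other members lie further from 0 on the right, among them XBP1, DERL2 and EDEM1 above it and ATF6B, MANF and CALR below it.

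Other genes of the ER were counted from 9 lists. Of 172 tested, 9 were higher and 8 lower (9.88%, against 7.13% of all genes). The list of the PERK arm and its ATF4 branch held 5 of these 17, out of 10 tested. Its median log2 fold change was 1.18. The stress genes TRIB3 (9.57-fold), CHAC1 (12.2-fold), DDIT3 (6.89-fold) and ATF4 (2.36-fold) rose. NFE2L2, an oxidative stress regulator, was 2.48-fold lower. EIF2AK3, which encodes PERK itself, was in this list and was not called in edgeR. PERK activity was not measured. Adjusted p in edgeR lay between 0.0285 and 0.0450 for every called gene named from these lists. TRIB3, CHAC1 and DDIT3 passed with each library left out in turn, ATF4 and NFE2L2 were lost without DMSO library 1 and without DMSO library 2, ATF4 also with the replicate number as a block, and none of the 5 passed with the GC and length offset. In the fit with that offset no gene of the 13667 passed. The log2 fold changes there were 2.72 for TRIB3, 2.94 for CHAC1, 2.38 for DDIT3, 0.72 for ATF4 and -1.20 for NFE2L2. TRIB3 alone of the 5 passed with the offset and the replicate block. Over the other 162 genes 5 were higher and 7 lower (7.41%), and their median was 0.13. No test compared the PERK list with the 37 genes.

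The lists next to the translocon and the secretory exit contained both calls and many uncalled genes. The share called by edgeR was 5.6% of targeting and entry genes, 13.6% of export genes, 3.2% of N-glycosylation genes and 3.1% of further ERAD genes. It was 11.8% of thiol oxidoreductases, 10% of ER HSP70, HSP90 and J-domain genes and 50% of the 4 CREB factors. Over all genes tested it was 7.13%. Among 36 further targeting and entry genes, SRP72 and SRP14 of the signal recognition particle fell (3.47-fold and 2.55-fold) in edgeR, which called none higher. Of the 36, 22 had positive values, against 7094 of the 13667 genes tested. At an unadjusted p under 0.05 in edgeR 6 were higher and 5 lower, against 13.7% and 14.7% of all genes. DESeq2 called 3 higher and 4 lower, against 7.63% and 11.1% of all genes. SRP14 was lost without either DMSO library and SRP72 without DMSO library 1. In the export list of 22, the COPII coat genes SEC24B and SEC31A fell (3.58-fold and 2.94-fold) and TMED9, a cargo receptor gene, rose 2.32-fold. Of 31 N-glycosylation genes TMEM258, a small subunit of the oligosaccharyltransferase, rose 3.22-fold, and of 32 further ERAD genes the ubiquitin ligase gene TMEM129 rose 2.71-fold. The next smallest p in those lists belonged to ALG1 (log2 fold change 0.76) and RNF5 (1.16), which did not pass. Among 17 tested thiol oxidoreductases SELENOM rose 3.18-fold and GPX8 was 2.42-fold lower. Among 10 ER HSP70, HSP90 and J-domain genes the chaperone HSP90B1 was 3.05-fold lower, and DNAJB9, an ERAD cofactor under XBP1, did not pass (22.4 and 57.7 CPM in the Rib_CA libraries and 17.2 and 17.6 CPM in the DMSO libraries). Of 4 membrane-bound CREB factors CREB3L4 rose 2.69-fold, and CREB3L3 fell, with no counts in either Rib_CA library and 24 and 39 counts in DMSO. Set against a floor of 3 counts per Rib_CA library, CREB3L3 was at least 12.8-fold lower, a bound that holds only for independent counts. No ER-phagy gene of 10 passed in edgeR, DESeq2 or limma-voom, which called 7.13%, 18.7% and 6.45% of all genes. An unadjusted p under 0.05 in edgeR was found for 2, TEX264 and RETREG3, against 28.4% of all genes. Both had positive fold changes. Of the called genes in this paragraph, CREB3L3 alone passed without DMSO library 1 and without DMSO library 2, although DESeq2 did not call it; SEC24B was lost without DMSO library 2, and the others, SRP72 apart, were lost in both fits.

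**Figure D5:**
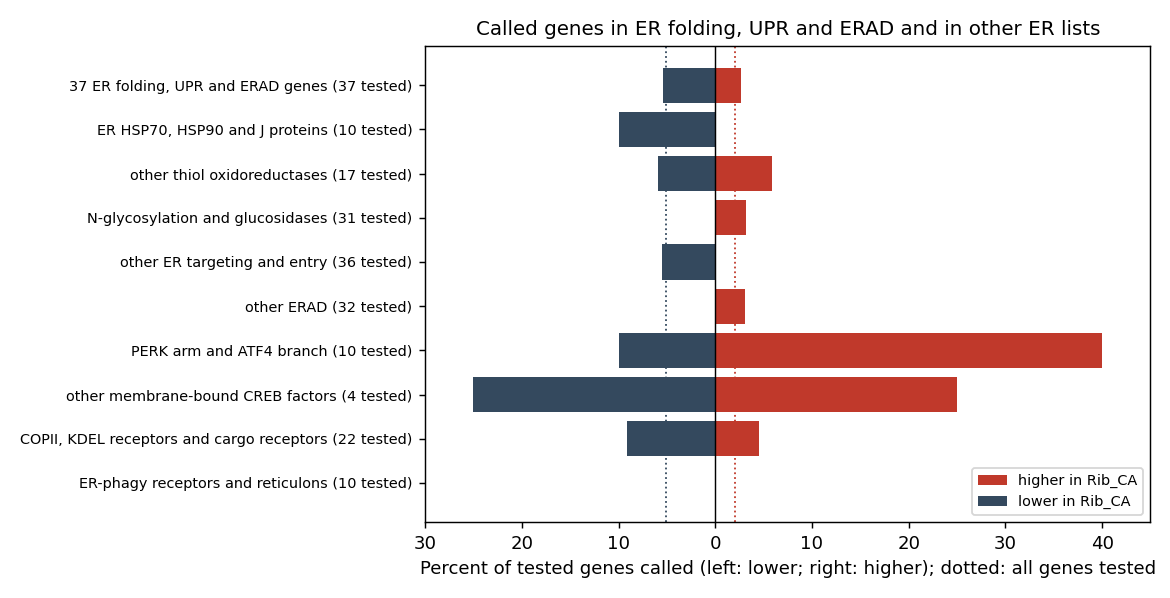
Percent of tested genes called in the 37 ER folding, UPR and ERAD genes and in 9 further ER lists (bars to the right, higher in Rib_CA; to the left, lower), with dotted lines at the shares of all genes tested (2.01% higher and 5.11% lower). The PERK list has 4 of 10 genes called higher, and the 37 genes have 1 higher and 2 lower, close to the dotted lines.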

How the data were processed

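The authors deposited raw counts per human Ensembl gene, whole numbers without normalisation, for 4 messenger RNA libraries. How reads were aligned, counted and assigned to strands is not stated in the labels. Per the submitters' processing notes the builds were GRCm38 and mm10, both of mouse, although every ID in the table is human. Most values between 1 and 10 were even (67.7% to 70.7% per library), so 1 fragment may count as 2 reads, and floors cover counting error only. Groups came from the titles. Libraries of a group differed by far more than counting noise (chi-square 265 times its degrees of freedom in Rib_CA and 257 times in DMSO).

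Symbols were found for 20148 IDs. Transcript lengths, GC content (longest transcript), gene limits and overlaps came from GENCODE release 29 (GRCh38), and promoter windows from RefSeq (GRCh38.p14). The main test was the quasi-likelihood test of edgeR 4.0.16 under R 4.3.3 (filterByExpr, minimum count 10 and minimum total 15; TMM; robust fit; 2 residual degrees of freedom). TMM factors were 1.01 and 1.14 in Rib_CA and 0.997 and 0.872 in DMSO. SE is the absolute log2 fold change over the root of F. Alternatives were DESeq2 1.42.0 (test and size factors), limma-voom (limma 3.58.1), total-count scaling, other filters on low counts, leaving out mitochondrial genes or 1 library, a replicate block, and an offset from a smooth over GC content and log2 length (mgcv 1.9.3, 6 basis functions), which also removes real change that runs along these properties. The members and lists were chosen with earlier results of these data known. Described in full were the members that passed, the 8 with the next smallest p, and ERN1, XBP1 and ATF6. Of each further list the 2 genes with the smallest p were named, and the other called genes were added after their values were seen. Protein sequence was not analysed here.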

Additional observations from a re-analysis of the deposited data

How the results depend on the processing

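Of 37 member fold changes, 20 kept their sign under all 15 alternatives and 17 changed it in at least 1. ERN1 kept its sign in every alternative run and missed the threshold under the GC and length offset, where no gene passed. It passed with that offset and the replicate block (edgeR adjusted p = 0.0460). Of all genes, 974 were called. That number was 2557 with the DESeq2 test, 588 with total counts alone, 0 with the GC and length offset, 16 with that offset and the replicate block, and 173 to 2868 with 1 library left out. Members higher (1) came to 5 with DESeq2, to 3 with the stricter filter of 5 CPM in at least 2 libraries, with no filter or without mitochondrial genes, to 0 with the offset, and to 1 to 9 with 1 library left out. Members lower (2) came to 4 with DESeq2, to 0 with total counts, the offset or the offset and block, and to 0 to 6 with 1 library left out. Called genes in the other lists (9 higher, 8 lower) came to 16 higher with DESeq2, 0 and 0 with the offset, 1 and 0 with offset and block, 5 lower with total counts, and to 3 to 23 higher and 2 to 17 lower with 1 library left out. The median member log2 fold change (0.07) was 0.17 with the offset, 0.17 with offset and block, -0.00445 with limma-voom, 0.27 with total counts, and -0.0358 to 0.116 with 1 library left out. The causes were not tested.

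The labels do not say whether same-numbered libraries are pairs, and their deviations from the group means had a correlation of -0.17. With the replicate block 947 genes were called, 1 member was lower (SEC63, adjusted p = 0.0652 in edgeR, was lost) and the median was -0.00456. The crossed pairing, added after seeing the data, called 1991 genes, 3 members higher, 4 lower and 15 list genes higher, with a median of -0.00450.

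Signs reversed as follows. DERL1 was -0.0215 with DESeq2 size factors and with the DESeq2 test, -0.00450 crossed, -0.00445 with limma-voom, -0.00134 with no filter and -0.00456 with the block. CREB3L2 was -0.33 crossed, -0.35 with limma-voom, -0.34 with the block and -0.0812 with offset and block. With the offset MBTPS1 was -0.00746, PDIA4 -0.10, DERL3 -0.33, ATF6 0.000836, ERO1A 0.16, PDIA3 0.18, CANX 0.29 and MBTPS2 0.53. With offset and block MBTPS1 was -0.0101, PDIA4 -0.0835, DERL3 -0.31, PDIA3 0.18, ERO1A 0.19, CANX 0.27 and MBTPS2 0.52. With total counts CANX was 0.0438, HYOU1 0.0541, MANF 0.0597, PDIA3 0.0728, CALR 0.0900, SEC61A1 0.19 and MBTPS2 0.20, and without mitochondrial genes MBTPS2 was 0.00598. With 1 library left out, CALR ran from -0.376 to 0.0807, CANX from -0.69 to 0.17, CREB3L2 from -2.08 to 1.09, DERL1 from -0.19 to 0.12, DERL3 from -0.40 to 0.45, EDEM1 from -5.09e-05 to 1.20, ERO1B from -0.77 to 1.22, HYOU1 from -0.417 to 0.0532, MBTPS2 from -0.64 to 0.38, SEC61A1 from -0.37 to 0.19 and SYVN1 from -0.99 to 0.27. With 2 libraries in a group, a fold change as small as that of most members could not be told from their spread.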
